A study of Homo sapiens with 6 samples.

Results

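The MYC, MAX and MXD network is a family of transcription factors that share a basic helix-loop-helix leucine zipper and bind DNA in pairs. It is represented here by 10 genes: MYC, MYCN, MYCL (MYCL1 in the array's annotation), MAX, MXD1, MXI1, MXD3, MXD4, MNT and MLX. All 21 probes that the platform annotation assigns to these symbols were taken, out of 47315 probes on the array. Each of the 10 genes had at least 1 probe that passed the detection filter, among 12134 genes that did. The genes were chosen on earlier results of the same comparison, so the differences of the 10 genes, and whether limma's threshold was passed, are given as a description, with no p-value, and support nothing.

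RNA levels come from 6 arrays of the Illumina HumanHT-12 v4 design, 3 of HEK-293 cells that stably overexpress circANRIL and 3 of HEK-293 cells with the empty pBI-CMV2 vector. HEK-293 is an established human embryonic kidney cell line, and circANRIL is a circular RNA made from exons of ANRIL, a long noncoding RNA. In the study's methods, the pBI-CMV2 construct also carries green fluorescent protein, and stable lines were made by cotransfection with a neomycin resistance vector and G418 selection, so both groups share the vector backbone and the selection. For each construct 3 or more lines were established, and the methods speak of cell lines with n = 3 a group for the arrays, but neither they nor the labels say that each array is a line of its own. The spread between arrays may therefore be in part technical, and a difference between groups cannot be told apart from one between selected lines.

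In this network, MYC and its relatives MYCN and MYCL pair with MAX and activate genes at a short DNA motif, the E-box CACGTG, many of them genes for ribosome assembly, nucleotide synthesis and growth. The MXD proteins, MXI1 and MNT compete for MAX and recruit corepressors to the same motif. MLX is a second common partner, which pairs with MNT, with some MXD proteins and with the glucose-responsive factors MondoA (gene MLXIP) and ChREBP (gene MLXIPL).

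Between 43.4% and 46.8% of the probes were detected on an array, at a detection p under 0.05. Across probes, which are not independent replicates, Pearson's r was 0.980 to 0.990 between arrays of a group and 0.946 to 0.968 between groups. A probe was kept where it was detected on at least 3 of the 6 arrays. Levels are log2 values after background correction and quantile normalization, and a difference is the circANRIL mean minus the vector control mean, with its standard error (SE) from limma. A probe is called where its adjusted p is under 0.05. Of 10 genes listed as markers of HEK-293 cells, PAX2, LHX1 and KRT18 were not kept. Of the 7 measured, 4 were higher and 1 was lower in circANRIL cells (57.1% and 14.3%, beside 11.4% and 9.26% of all genes). The neuronal filament genes in this list went both ways, with NEFM lower (−5.36) and INA (3.75) and NEFL (1.08) higher, and the keratin gene KRT8 was higher too (2.30). INA was detected on only 1 vector control array, with 4.28, 4.31 and 6.51 in that group, so the size of its difference is uncertain. The last higher marker, GATA3 (0.47), was detected on no vector control array and lost its call without any 1 of the 6 arrays. It passed the detection filter through the circANRIL arrays alone, so its place among the 4 higher markers supports nothing. Of 10 markers of other cell types, ACTA2 was higher (0.73) and COL1A1 lower (−0.52), the COL1A1 call being lost in 12 of 15 refits, among them those without any 1 circANRIL array or without vector control array 2 or 3. The monocyte marker CD14 and the liver marker ALB were detected on all 6 arrays and were not called, at −0.13 each. The other blood markers PTPRC and CD3E, the endothelial markers PECAM1 and CDH5 and the fibroblast marker DCN were not kept. In these bulk samples, fewer cells of a type and less RNA per cell cannot be told apart. What part these marker differences have in the results below was not tested.

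In circANRIL cells MYC, MAX and MXD4 had lower levels than in vector control cells, MYCN had a higher one, and the other 6 genes differed by 0.05 to 0.35 on the log2 scale. Of the 10 genes, 1 was called higher and 3 were called lower, beside 11.4% and 9.26% of all genes with 1 probe each. Over the 17 kept probes of the network, 1 was called higher and 5 lower, beside 9.27% and 8.44% of all kept probes. The arrays of the groups did not overlap at 7 of these 17 probes, and at 35.7% of all kept probes. Since the genes were chosen on this comparison, nothing is read from these counts. The median difference of the 10 genes was −0.21, against −0.02 over all genes.

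MYC, which drives growth and ribosome production in many cell types, had the largest difference among the 10 genes. By its brightest probe its level was 10.90, 10.95 and 11.23 on the circANRIL arrays and 12.19, 12.13 and 12.21 on the vector control arrays. The means were 11.03 ± 0.18 in circANRIL cells and 12.17 ± 0.04 in vector control cells (SD, n = 3 each), a difference of −1.15 (SE 0.12), or 2.22-fold lower. Every circANRIL array lay below every vector control array, and the vector control arrays were close together. The second MYC probe read 10.58, 10.85 and 10.80 in circANRIL cells and 12.17, 12.18 and 12.16 in vector control cells. Its difference was −1.43 (SE 0.12), 2.69-fold lower, and its groups were farther apart than those of the brightest probe.

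MYCN, the relative of MYC best known from the developing nervous system and neuroblastoma, was near the detection limit. Its kept probe read 5.14, 5.04 and 5.24 on the circANRIL arrays and 4.80, 4.50 and 4.50 on the vector control arrays, a difference of 0.54 (SE 0.16) that ran from 0.17 with the authors' normalized values to 1.46 with floored signals. It was detected on 3 circANRIL arrays and on 1 vector control array, so it passed the filter mainly through the circANRIL group. The groups did not overlap. A second MYCN probe was detected on 1 circANRIL array and no vector control array and was not kept. The call on MYCN was lost, or the probe was filtered out, in 9 of 15 refits, among them those without any 1 of the circANRIL arrays or without vector control array 2 or 3.

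For MYCL, the family member first found in lung cancer, the kept probe read 4.61, 4.82 and 4.36 in circANRIL cells and 4.67, 4.38 and 5.13 in vector control cells. It was detected on 1 circANRIL array and 2 vector control arrays, the values interleave, and the difference was −0.13 (SE 0.19). Of its other probes, 1 was detected on no array and the other on 2 vector control arrays.

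MAX is the partner that MYC and the MXD proteins need in order to bind DNA. Its brightest probe read 6.0, 5.95 and 5.83 in circANRIL cells and 6.58, 6.45 and 6.81 in vector control cells, a difference of −0.69 (SE 0.19). The difference ran from −0.36 with the authors' normalized values to −0.87 with floored signals. The 3 other MAX probes, designed on other transcript variants, are dimmer. The largest difference among these was −0.64 (SE 0.21), with 5.44, 4.74 and 4.58 in circANRIL cells and 5.45, 5.68 and 5.56 in vector control cells. The groups of this probe are separated only narrowly, since circANRIL array 1 lies beside the lowest vector control array. The remaining MAX probes had differences of −0.34 (SE 0.18) and −0.15 (SE 0.18) and were not called. All 4 probes had the same sign. The call on the brightest MAX probe was lost without circANRIL array 2 or 3 or without vector control array 3.

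**Figure D1:**
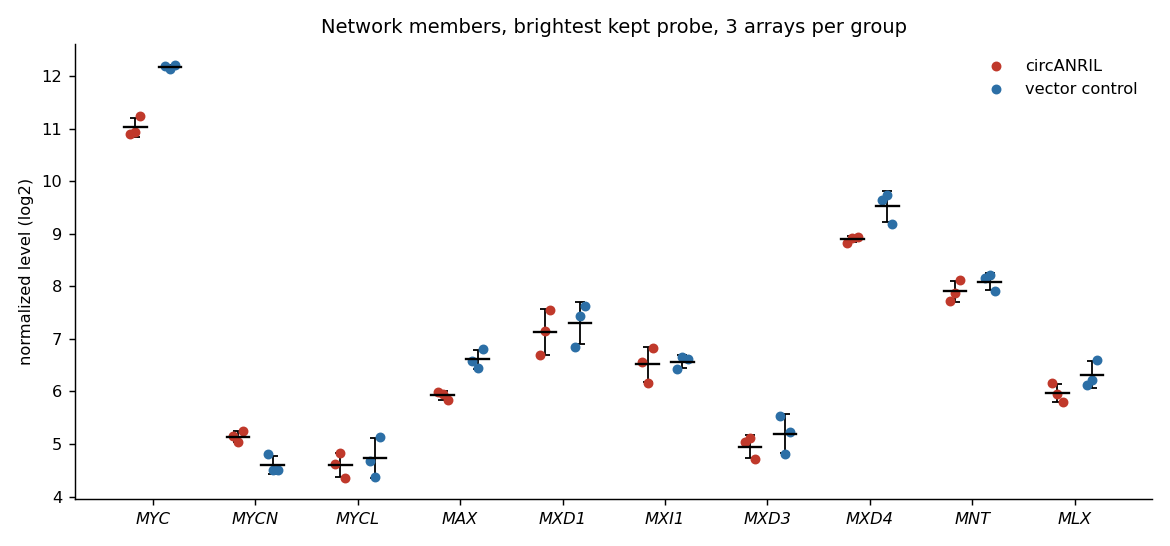
Normalized log2 level of each network gene by its brightest kept probe (vertical axis) in circANRIL cells (red, left) and vector control cells (blue, right). Points are the 3 arrays of a group, the long bar is their mean and the capped line the SD. MYC, MAX and MXD4 lie lower in circANRIL cells and MYCN higher, each without overlap, while the groups of the other 6 genes overlap.

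Among the antagonists of MYC, MXD4 was the only one that was called. MXD4, a small repressor linked to differentiated and resting cells, read 8.83, 8.92 and 8.94 on the circANRIL arrays and 9.63, 9.74 and 9.19 on the vector control arrays. The difference was −0.63 (SE 0.17), and the groups did not overlap, although vector control array 3 lay well below the other two of its group. The call was lost without circANRIL array 1 or 2 and without vector control array 1 or 2.

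MXD1, which is induced as cells leave the cell cycle, read 6.69, 7.14 and 7.56 in circANRIL cells and 6.85, 7.44 and 7.62 in vector control cells, a difference of −0.17 (SE 0.25). Both groups cover much the same range. MNT, the antagonist present in most cells, read 7.73, 7.88 and 8.12 in circANRIL cells and 8.15, 8.21 and 7.90 in vector control cells, a difference of −0.18 (SE 0.18) with overlapping groups. MXD3, an antagonist expressed around S phase, had a difference of −0.24 (SE 0.20) and overlapping groups.

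MXI1, also called MXD2, was read by 4 probes, of which 1 was detected on no array. The brightest read 6.57, 6.16 and 6.83 in circANRIL cells and 6.42, 6.65 and 6.61 in vector control cells, a difference of −0.05 (SE 0.21). The other kept probes gave 0.16 (SE 0.19) and −0.10 (SE 0.17), so the probes had no common sign. MLX read 6.15, 5.96 and 5.80 in circANRIL cells and 6.12, 6.22 and 6.60 in vector control cells by its brighter probe, a difference of −0.35 (SE 0.21). Only circANRIL array 1 and vector control array 1 are out of order. The dimmer MLX probe gave −0.09 (SE 0.18).

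**Figure D2:**
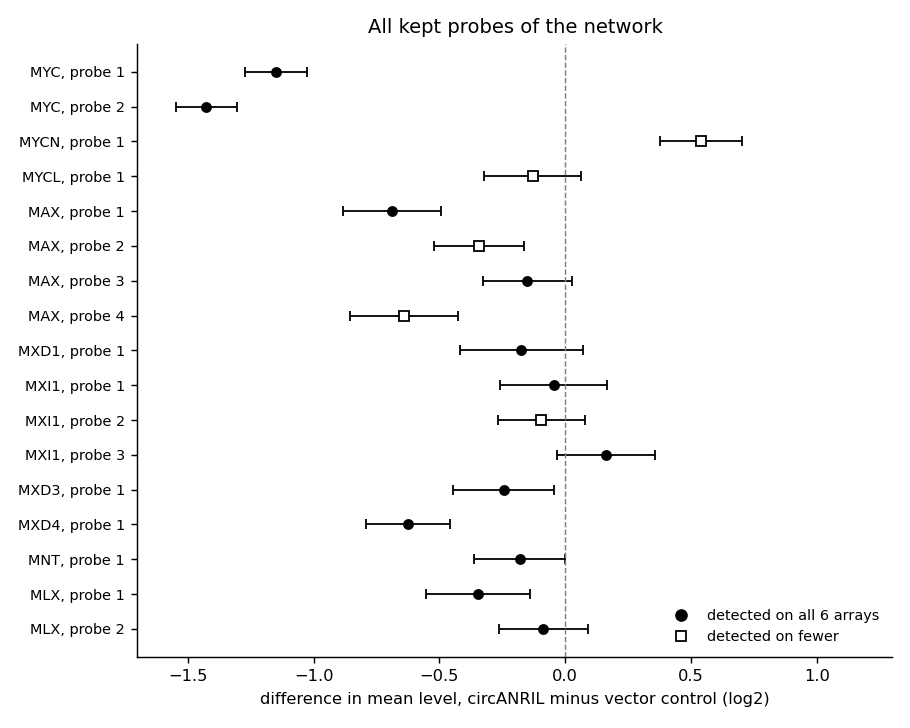
Difference in mean log2 level, circANRIL minus vector control (horizontal axis), for the 17 kept probes of the network, with the standard error as bars and the brightest probe of each gene as probe 1. Filled points were detected on all 6 arrays and open squares on fewer; both MYC probes lie farthest to the left, and the MYCN probe is the farthest to the right.

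Across the 6 arrays, Pearson's r of MYC with the brightest probe of each other member was highest for MAX (0.919) and MXD4 (0.859) and lowest for MYCN (−0.869). These correlations rest on 6 arrays in 2 groups, so any gene that differs between the groups has a high r of 1 sign or the other. Among 13610 probes detected on all arrays, the most alike to MYC were those of BORCS7 (r = 0.997), MKNK1 (0.996), ATP5ME (0.996), RPRD1A (0.996) and PUS3 (0.996). BORCS7, a subunit of a complex that positions lysosomes, read 7.44, 7.42 and 7.60 on the circANRIL arrays and 8.11, 8.04 and 8.06 on the vector control arrays. For ATP5ME, a subunit of ATP synthase, the probe most like MYC differed by −0.94 (SE 0.19), while its brightest probe differed by −0.52 (SE 0.13). The kinase gene MKNK1 differed by −0.34 (SE 0.18), RPRD1A, which binds RNA polymerase II, by −0.31 (SE 0.13) and PUS3, a pseudouridine synthase, by −0.52 (SE 0.16). The differences of MKNK1 and RPRD1A did not pass limma's threshold, so a high r here does not mean a call.

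The genes near MYC on chromosome 8 differed in both directions, several of them by more than MYC itself. PVT1, the noncoding RNA gene that follows MYC on the chromosome, read 4.46, 4.71 and 4.75 in circANRIL cells and 9.43, 9.14 and 9.12 in vector control cells. The difference was −4.59 (SE 0.19, limma adjusted p = 7.85e-11). Every circANRIL array was near the detection limit, with the probe detected on 2 of the 3, and every vector control array was far above it. The size therefore depends on the background correction, from −2.77 with the authors' normalized values to −6.23 with floored signals. The probe of MIR1204, a miRNA gene within the PVT1 locus, was detected on no circANRIL array and was at least 2.14-fold lower there, with 4.37, 4.44 and 4.43 in circANRIL cells and 5.89, 5.74 and 5.66 in vector control cells. It passed the detection filter through the vector control arrays alone.

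Beyond PVT1 the sign turned. Of the 10 measured genes that follow MYC, 6 were higher and 2 were lower, with a median difference of 0.92, whereas of the 10 that precede it none was higher and 2 were lower, with a median of −0.16. Over 25 measured genes on each side, 7 of those that follow were higher and 2 lower, with a median of 0.24, and 2 of those that precede were higher and 4 lower, with a median of −0.02. The median over the 444 measured genes of chromosome 8 was −0.02, with 58 higher and 42 lower. The higher genes were CYRIB (1.35, limma adjusted p = 0.000418), ASAP1 (1.03, adjusted p = 0.00206), EFR3A (0.81, adjusted p = 0.0314), NDRG1 (2.37, adjusted p = 6.03e-06), ST3GAL1 (1.27, adjusted p = 0.000285) and KHDRBS3 (1.46, adjusted p = 3.15e-05). CYRIB restrains RAC1-driven membrane ruffling and ASAP1 acts on the GTPase ARF1, while ST3GAL1 adds sialic acid to glycoproteins. NDRG1 is a stress-responsive gene of differentiated cells that MYC represses, and KHDRBS3 encodes an RNA-binding splicing factor.

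KHDRBS3 read 10.09, 10.52 and 10.40 on the circANRIL arrays and 8.93, 8.53 and 9.18 on the vector control arrays. NDRG1 read 9.75, 10.07 and 10.23 in circANRIL cells and 6.89, 8.0 and 8.05 in vector control cells. In both genes every circANRIL array lay above every vector control array, with a wider gap for NDRG1. EFR3A overlapped between the groups and lost its call in 5 of the 6 refits without 1 array, that is, without any circANRIL array and without vector control array 1 or 2. On the side before MYC, NDUFB9, a subunit of respiratory complex I, was lower (−0.55, limma adjusted p = 0.0336), as was LRATD2 (−0.46, adjusted p = 0.0388), the nearest measured gene. Their calls were lost without vector control array 3 or circANRIL array 1, for NDUFB9 also without circANRIL array 3, and for LRATD2 also without vector control array 2 or circANRIL array 2.

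Among the 20 measured genes nearest to MXD4, at the end of the short arm of chromosome 4, 12 were lower and none was higher. Of the 8 not called, 5 lay below 0, and SCARNA22 (0.61), GRK4 (0.57) and NOP14-AS1 (0.33) lay above it. The median difference of the 20 was −0.70, against −0.27 over the 436 measured genes of chromosome 4, of which 98 were lower and 24 higher. LETM1, a mitochondrial ion exchanger, was the lowest of them (−1.35, limma adjusted p = 0.000217). FGFR3, a fibroblast growth factor receptor, was lower by −1.22 (adjusted p = 7.94e-05), SLC75A1 by −1.10 (adjusted p = 2.89e-05) and HTT, the Huntington disease gene, by −0.94 (adjusted p = 0.00274). The ribosome assembly gene NOP14 (−0.79, adjusted p = 0.00699) and the spindle gene TACC3 (−0.69, adjusted p = 0.00862) lie in the same stretch. MXD4 itself, at −0.63, was close to the median of its neighbours.

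Around the other 8 members fewer neighbours were called. MNT, on chromosome 17, had 6 lower and 1 higher among 20 neighbours (median −0.32), where 54 of 717 genes of that chromosome were lower and 55 higher. MYCN, on chromosome 2, had 4 higher and 2 lower (median 0.40), where 111 of 802 genes were higher and 33 lower. Around MAX on chromosome 14, 4 neighbours were higher and none was lower (median −0.10), where 33 of 390 genes were higher and 20 lower. For MYCL, MXD1, MXD3, MXI1 and MLX, 0 to 2 neighbours were higher and 0 to 2 lower, with medians between −0.15 and 0.19. Over all genes, chromosome 1 (MYCL) had 171 of 1232 higher and 124 lower. Chromosome 5 (MXD3) had 54 of 520 higher and 38 lower, and chromosome 10 (MXI1) had 58 of 483 higher and 30 lower. MXD1 and MLX lie on chromosomes 2 and 17, given above. These counts were not compared by a test.

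**Figure D3:**
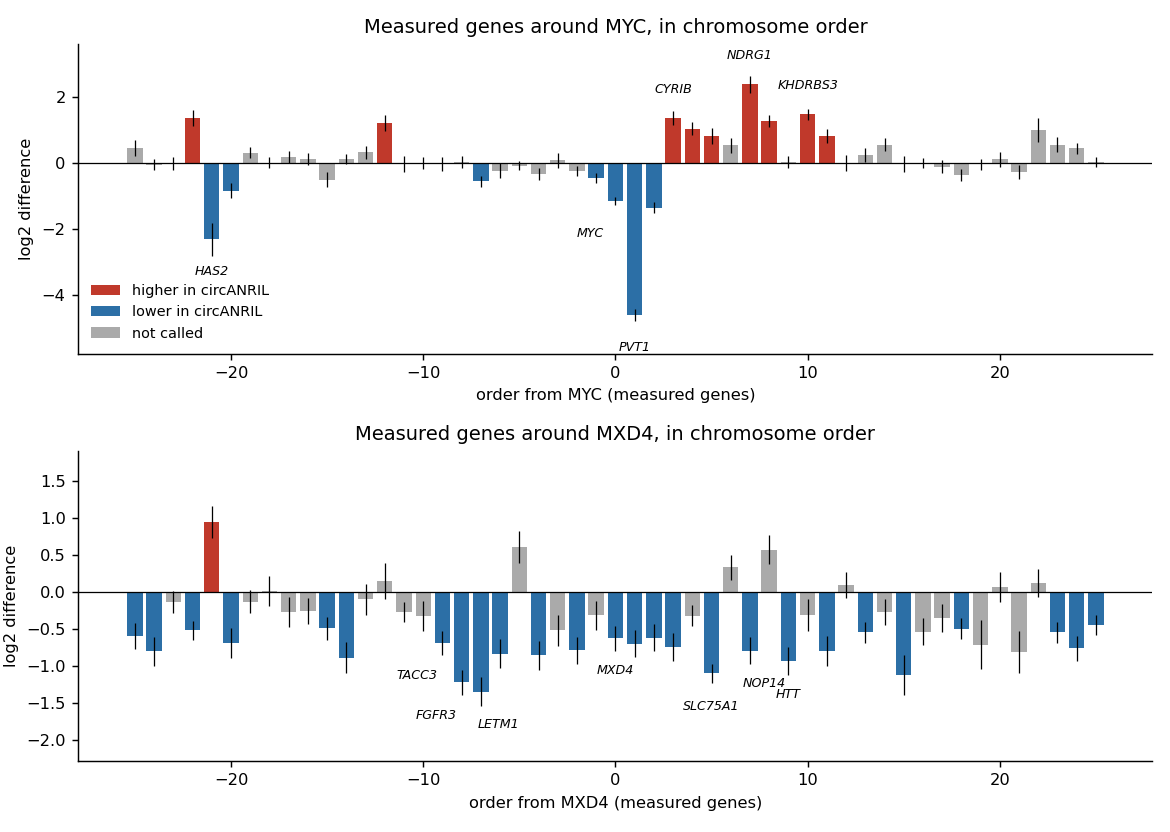
Log2 difference, circANRIL minus vector control (vertical axis), of the 25 measured genes on each side of MYC (top) and of MXD4 (bottom), in the order of the GRCh38.p14 gene table, with standard errors as lines. PVT1 (−4.59) stands below MYC with higher genes after it, and most genes around MXD4 lie below 0, 12 of the nearest 20 called lower.

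Of 32 proteins known to bind MYC, MAX or MLX or to act with them at promoters, 28 were measured, and 1 was higher and 7 were lower (11.4% and 9.26% of all genes were). Their median difference was −0.29, and 22 of the 28 lay below 0. The 7 lower genes became 3 without circANRIL array 2 or 3 and 4 without circANRIL array 1 or vector control array 1 or 3, and 12 after median scaling. The higher gene was MLXIPL, which encodes ChREBP, the MLX partner that turns on lipid and sugar genes in response to glucose. It read 6.41, 6.88 and 6.96 on the circANRIL arrays and 5.58, 6.16 and 5.48 on the vector control arrays (difference 1.01, SE 0.23, limma adjusted p = 0.00627). Its second probe was higher too (0.70, adjusted p = 0.021). The gene of the other glucose-responsive partner, MLXIP, was detected on no array.

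Of the lower partners, WDR5 helps MYC to its targets as a part of histone methyltransferase complexes. Its brightest probe read 8.56, 8.27 and 8.10 in circANRIL cells and 9.25, 8.92 and 9.29 in vector control cells (−0.84, SE 0.18, limma adjusted p = 0.00356). A dimmer WDR5 probe had the opposite sign and was not called (0.37, adjusted p = 0.184), so the probes of this gene disagree. CREBBP, an acetyltransferase coactivator, was lower by −0.76 (adjusted p = 0.00529), RUVBL1, an ATPase of chromatin remodelling complexes, by −0.61 (adjusted p = 0.0101) and KAT5, the TIP60 acetyltransferase, by −0.62 (adjusted p = 0.0284). A dimmer RUVBL1 probe was lower too (−0.90, adjusted p = 0.00376), and its dimmest was not called (0.07, adjusted p = 0.823). The call on KAT5 was lost without any 1 circANRIL array and without vector control array 2 or 3. MGA, a MAX partner of repressive complexes, had a difference of −0.28 (adjusted p = 0.345).

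Among 38 genes that control MYC itself or its protein, 33 were measured, 2 of them higher and 6 lower (6.06% and 18.2%, beside 11.4% and 9.26% of all genes), with a median of −0.14. Neither higher call was left without circANRIL array 2 or 3, 1 was left without vector control array 1 or 3, and the lower ones became 4 without circANRIL array 2. PVT1, described above, was the lowest. NOTCH1, a receptor whose active form induces MYC, read 6.31, 6.28 and 6.38 in circANRIL cells and 8.02, 7.08 and 7.51 in vector control cells (−1.21, SE 0.23, limma adjusted p = 0.00159). FBXW7, the ubiquitin ligase subunit that marks MYC for degradation, was lower by −0.78 (adjusted p = 0.00629), and AXIN1, a scaffold of the beta-catenin destruction complex, by −0.72 (adjusted p = 0.00701). Dimmer FBXW7 probes, at −0.59 and −0.28, were not called. The RNA-binding protein genes ELAVL1 (0.84, adjusted p = 0.0164) and IGF2BP3 (0.51, adjusted p = 0.0263) were the higher pair. The call of ELAVL1 was the one lost without vector control array 1, and that of IGF2BP3 without vector control array 3.

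Of 84 genes known to be induced by MYC, 77 were measured, and 3 were higher and 12 were lower in circANRIL cells (3.9% and 15.6%, beside 11.4% and 9.26% of all genes). The median difference was −0.20, with 55 of the 77 genes below 0, against −0.02 over all genes. On each array, the median over these genes of the deviation from the 6-array mean was −0.06, −0.13 and −0.12 in circANRIL cells and 0.08, 0.04 and 0.16 in vector control cells. The same medians over all genes were between −0.01 and 0.02. All 3 circANRIL arrays thus lay below all 3 vector control arrays, by small amounts. The 12 lower genes became 6 without circANRIL array 3 or vector control array 3 and 7 without circANRIL array 2.

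AMD1, which makes the aminopropyl donor for polyamines, had the largest fall among the MYC-induced genes. It read 8.29, 8.0 and 7.90 on the circANRIL arrays and 9.09, 9.15 and 9.01 on the vector control arrays (−1.03, SE 0.17, limma adjusted p = 0.000485). BYSL, needed for assembly of the small ribosomal subunit, was lower by −0.85 (adjusted p = 0.00471), EIF5A, a translation factor, by −0.67 (adjusted p = 0.0082) and PPAT, the first enzyme of purine synthesis, by −0.61 (adjusted p = 0.00683). Without any 1 of the 6 arrays, AMD1, BYSL, EIF5A and PPAT each kept their call. The other genes called lower were RCC1, LYAR, ODC1, PA2G4, UBTF, APEX1, GRWD1 and NOP56, of which ODC1 encodes the first enzyme of polyamine synthesis and UBTF a factor of ribosomal RNA transcription. Dimmer UBTF probes, at −0.39 and 0.04, were not called. RCC1 kept its call without any 1 array and LYAR lost it without vector control array 3. The others lost theirs more often, NOP56 without any of the 6 arrays, and GRWD1 and UBTF without any circANRIL array and without vector control array 3, with vector control array 1 for GRWD1 and 2 for UBTF. APEX1, whose groups overlap, and PA2G4 lost the call without circANRIL array 2 or 3 or vector control array 3. APEX1 lost it also without vector control array 1, and ODC1 lost it without circANRIL array 3 or vector control array 1. LYAR is also among the 25 measured genes that follow MXD4 on chromosome 4, of which 13 were lower and none was higher. PPAT lies on chromosome 4 too, where 98 of 436 measured genes were lower and 24 higher. What part this has in the count of lower targets was not tested.

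The 3 higher genes of this list were HMGA1, SLC2A1 and HK2. HMGA1, a chromatin architectural protein, read 10.68, 10.81 and 10.64 in circANRIL cells and 9.73, 9.51 and 8.68 in vector control cells (1.40, SE 0.21, limma adjusted p = 0.000218). SLC2A1, the glucose transporter GLUT1, read 9.33, 9.40 and 9.52 in circANRIL cells and 8.36, 8.44 and 8.27 in vector control cells (1.06, SE 0.15, adjusted p = 0.000185). HK2, which phosphorylates glucose, was higher by 0.64 (adjusted p = 0.0158), a call that was lost without circANRIL array 2 or 3 or vector control array 1. The second HK2 probe was higher too (1.02, adjusted p = 0.00355).

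**Figure D4:**
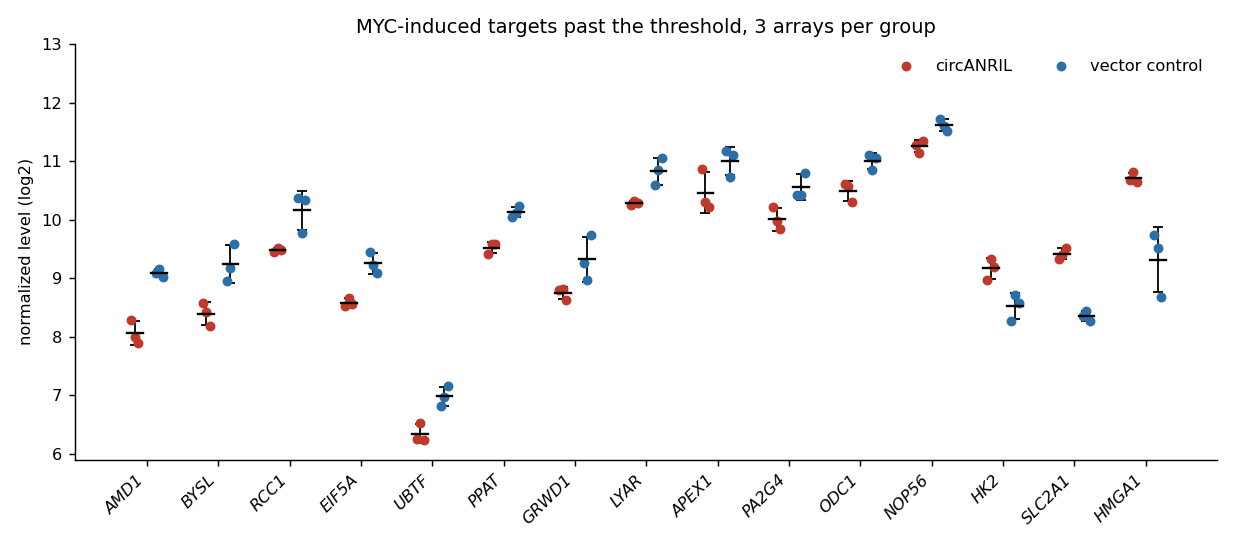
Normalized log2 level (vertical axis) of the 15 MYC-induced genes called between circANRIL cells (red, left) and vector control cells (blue, right), ordered by difference, with 3 arrays per group, their mean (long bar) and SD (capped line). The 12 genes on the left are lower in circANRIL cells, by −1.03 for AMD1 at the far left, and HK2, SLC2A1 and HMGA1 on the right are higher.

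MYC also represses genes, many of them through MIZ1, and these went both ways. Of 29 such genes, 22 were measured, and 4 were higher and 6 lower (18.2% and 27.3%, beside 11.4% and 9.26% of all genes), with a median of −0.06. CDKN1C, 1 of the 6 lower genes, was detected on no circANRIL array. It passed the detection filter through the vector control arrays alone, so its place in this count supports nothing. COL3A1, also lower, was detected on 1 circANRIL array. The higher ones were NDRG1, given above, and GADD45A (0.71, limma adjusted p = 0.0198), CEBPA (0.65, adjusted p = 0.0231) and CEBPD (0.76, adjusted p = 0.0497), a growth arrest gene and a pair of differentiation factors. Each of these 3 calls was lost without circANRIL array 2 or 3 and without 1 of the vector control arrays (array 3 for GADD45A and CEBPA, array 1 for CEBPD). CEBPA and CEBPD also lost theirs without circANRIL array 1. NDRG1 kept its call without any 1 array, but it is among the 10 measured genes that follow MYC on chromosome 8. Of those 10, 6 were higher and 2 lower, and what part this has in its rise was not tested. Among the lower ones, GADD45G, a relative of GADD45A, read 5.53, 6.07 and 5.95 in circANRIL cells and 8.66, 9.72 and 9.26 in vector control cells (−3.36, SE 0.24, adjusted p = 8.68e-08). KLF4, a Kruppel-like transcription factor, was lower by −2.64 (adjusted p = 1.32e-06), GAS1, a growth arrest gene, by −2.30 (adjusted p = 1.33e-07) and the cyclin gene CCND1 by −1.05 (adjusted p = 0.000604).

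Of 13 genes known to be driven by MLX with MondoA or ChREBP, 12 were measured, 1 higher and 1 lower (8.33% each, beside 11.4% and 9.26% of all genes), with a median of 0.02. ARRDC4, an arrestin-like regulator of glucose uptake, read 8.60, 9.16 and 10.40 in circANRIL cells and 7.04, 8.36 and 6.80 in vector control cells (1.98, SE 0.39, limma adjusted p = 0.00222). Its groups do not overlap, but both are wide. TXNIP, its close relative and the usual readout of MondoA and MLX, read 8.73, 9.46 and 9.90 in circANRIL cells and 8.78, 9.01 and 8.15 in vector control cells. Its difference of 0.71 (SE 0.26, adjusted p = 0.0661) was not called, with circANRIL array 1 inside the vector control range. KLF10, a transcription factor gene induced by growth factors and glucose, was lower by −1.26 (adjusted p = 0.00114) by its brightest probe, and its 2 dimmer probes, at −0.51 and −0.49, were not called. The brightest probe was near the detection limit in circANRIL cells, where it was detected on 2 arrays. With a detection p under 0.01 on all arrays, 0 genes of this list were lower.

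**Figure D5:**
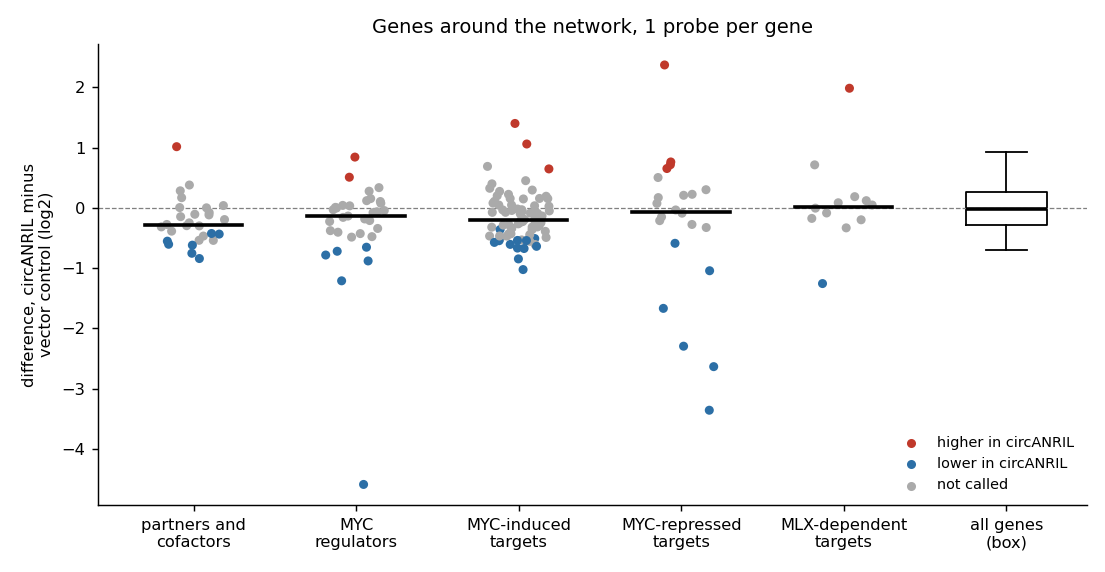
Log2 difference, circANRIL minus vector control (vertical axis), of each measured gene in 5 lists around the network, with the list median as a bar, beside all genes as a box of quartiles with whiskers. The medians are −0.29 for partners and cofactors, −0.14 for MYC regulators, −0.20 for MYC-induced targets, −0.06 for MYC-repressed targets and 0.02 for MLX-dependent targets, against −0.02 over all genes.

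The promoters were searched for the E-box CACGTG, which reads the same on both strands, in RefSeq's windows of 300 bases around each gene's start (build GRCh38.p14). It was found in 7.26% of 35116 promoters. Of the network genes all but MYC matched an entry, 9 genes with 12 promoters, and 3 genes had the motif, beside 12.8% of the genes with a kept probe. These are shown because they are the members whose own promoters hold the network's binding letters, with 40 bases each, in the direction of the gene and the E-box in capitals. MXD4 (minus strand, chr4:2262320-2262359) has it 238 bases before its start, MNT (minus strand, chr17:2401231-2401270) 193 bases before and MLX (plus strand, chr17:42567033-42567072) 50 bases before.
MXD4: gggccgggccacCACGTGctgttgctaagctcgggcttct
MNT: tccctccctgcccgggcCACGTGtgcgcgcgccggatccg
MLX: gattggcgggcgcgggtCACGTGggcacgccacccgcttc
Of these, MXD4 was called lower, while MNT and MLX had smaller differences of the same sign (−0.18 and −0.35). That sign was not particular to genes with the motif, since 9 of the 10 network genes lay below 0. MAX, also called lower (−0.69), had no E-box in its windows. A match describes the letters of the window and is not a measured binding site.

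Of the MYC-induced list, 70 genes matched a promoter entry and 32 of them (45.7%) held an E-box, beside 12.8% of the genes with a kept probe. Among the measured genes, 30 had an E-box, with 1 higher, 6 lower and a median difference of −0.32, and 36 had none, with 2 higher, 6 lower and a median of −0.13. The difference between these medians was not tested. The lower genes with an E-box were APEX1, BYSL, LYAR, ODC1, PPAT and RCC1, and the motif was found in lower, higher and uncalled genes alike. The windows of BYSL, PPAT and RCC1 are shown as the lower targets that hold the motif and kept their call without any 1 array. BYSL (plus strand, chr6:41921509-41921548) has it 28 bases after its start, PPAT (minus strand, chr4:56435775-56435814) 182 bases before and RCC1 (plus strand, chr1:28518019-28518058) 190 bases before.
BYSL: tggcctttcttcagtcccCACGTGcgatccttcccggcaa
PPAT: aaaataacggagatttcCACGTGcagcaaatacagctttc
RCC1: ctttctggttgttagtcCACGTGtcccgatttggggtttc
RCC1, a chromatin-bound exchange factor for the GTPase RAN, read 9.44, 9.52 and 9.48 in circANRIL cells and 10.36, 9.77 and 10.33 in vector control cells (−0.68, SE 0.17, limma adjusted p = 0.00981). BYSL read 8.58, 8.41 and 8.18 in circANRIL cells and 8.96, 9.17 and 9.59 in vector control cells, and PPAT 9.41, 9.58 and 9.58 in circANRIL cells and 10.05, 10.12 and 10.23 in vector control cells. In none of these 3 genes did the groups overlap.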

How the data were processed

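The authors preprocessed the bead data in GenomeStudio (version 2011.1, per the labels). Each array's deposited column of intensities is linear and background-subtracted by the authors, but not normalized between arrays, and is accompanied by a column of deposited detection p-values, which rest on negative control beads. On each array 11666 to 12397 of the intensities are negative. A second deposited table holds the authors' normalized intensities and served as an alternative.

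Intensities went through neqc of limma 3.58.1 (R 4.3.3; offset 16), which corrects background by normexp from the detection p-values, normalizes by quantiles and gives log2 levels. The 21191 probes detected (p under 0.05) on 3 or more arrays were tested with lmFit and eBayes (intensity trend), with Benjamini-Hochberg adjustment over all of them and a threshold of 0.05. The kept probe with the highest mean level stands for a gene. Other probes of the listed genes did not always share its call (APEX1, KAT5 and NOP56 among them). Probes were named from the platform annotation and matched by gene identifier to RefSeq's GRCh38.p14 table (30071 of 30110 probes with 1 symbol), which also gave the order of genes. A fold against a group where a probe was not detected is a lower bound, set by each array's lowest detected level. The fit was tested on simulated arrays.

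The members and lists were chosen with earlier results of these data known. Named are all members, up to 4 genes per list and direction with the smallest adjusted p, PVT1, MGA, MLXIP, MLXIPL and TXNIP, the 5 genes most correlated with MYC, and called genes beside MYC. Genes around MXD4, the other lower MYC targets and the marker genes were named after their values were seen. Replicate numbers did not pair the arrays (deviation correlations 0.003, 0.08 and −0.13), and no arrays were identical. No batch or scan date is named. With 3 arrays per group, their number limits the precision. Alternatives were other background corrections, scaling, filters, tests, probe choices and leaving out each array.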

Additional observations from a re-analysis of the deposited data

How the results depend on the processing

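MYC was lower under each of the 17 alternatives tried, between −1.43 and −1.08, with −1.33 after median scaling, −1.43 by the probe with the smallest p and −1.29 as the mean of its kept probes. PVT1 was called in 14 of 14 refits that could test it (−6.23 to −2.77), an alternative added after seeing the data. After median scaling the median of all genes was −0.14, against −0.02, and it gave 2974 lower probes in place of 1788 and 27 lower MYC-induced genes in place of 12, so small falls depend on the scaling. The same scaling gave 1418 higher probes in place of 1965 and 1 higher MYC-repressed gene in place of 4. Small rises therefore depend on the scaling too. The lower partners ran from 2 (t-test) to 12 (median scaling), with 3 under no filter, and the lower MYC regulators from 1 to 10 by the same settings. Without the intensity trend 7 MYC-induced genes were lower. The study's methods name a t-test for 2 normally distributed groups in general, but took array transcripts by fold change for pathway analysis. By a t-test on the log2 levels, with the same adjustment, 281 probes were higher and 203 lower. It left 0 network genes higher and 1 lower, and 1 MYC-induced gene higher and 2 lower. The higher call, on MYCN, was also absent (0) with floored signals, with a detection p under 0.01 on all arrays and with no filter. Without 1 array each, 1228 to 1801 probes were higher and 907 to 1511 lower, 0 to 1 network genes were higher and 1 to 2 lower, and 6 to 16 MYC-induced genes were lower. The cause of these changes was not tested. With the replicate number as a block, 1 network gene was higher and 3 were lower, and 3 MYC-induced genes were higher and 10 lower; the numbers give no pairing. Of the members not called, MYCL and MXD1 had the opposite sign in 1 alternative each and MXI1 in 3. The median of the MYC-repressed genes had the opposite sign in 2 alternatives and that of the MLX-dependent genes in 4. The number of lower genes among the 20 neighbours of MXD4 ran from 1 (by the t-test) to 13 (after median scaling), and from 9 to 12 without 1 array each. Probes near the detection limit (MYCN, MYCL, the dimmer MAX and MXI1 probes) give small differences that may be understated.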
